A study of Homo sapiens with 12 samples.

Results

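The endoplasmic reticulum chaperone genes HSPA5, HSP90B1, CALR, CANX, PDIA4, PDIA6, DNAJB9, HERPUD1, SDF2L1 and XBP1 were taken by symbol from the deposited expression table. Each symbol matched 1 row, which gives 10 of 60564 genes. The table comes from RNA-seq of a pair of established cell lines of pancreatic ductal adenocarcinoma, CFPAC-1 and BxPC-3, and addresses how gene expression differs once primary cilia have been induced. A primary cilium is the antenna-like organelle that many resting cells carry. The groups were CFPAC-1 induced (48 h without serum), CFPAC-1 control (normal culture), BxPC-3 induced (48 h without serum) and BxPC-3 control (normal culture), with 3 libraries each and 12 in all. In the series' own text, cilia were on 39% of induced against 7% of control CFPAC-1 cells, and on 78% of induced against 5% of control BxPC-3 cells, with no error given. Every induced library had both serum withdrawal and cilia, whose effects cannot be told apart. Neither line carries a stated transgene, and the labels do not say whether libraries 1 to 3 were separate cultures, so the spread behind each p-value is that of these libraries and could be technical.

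Proteins that enter the endoplasmic reticulum are folded there by chaperones of the Hsp70 and Hsp90 families, by lectin chaperones that hold glycoproteins, and by protein disulfide isomerases that form and shuffle disulfide bonds. When unfolded protein accumulates, the sensors IRE1, PERK and ATF6 start the unfolded protein response: IRE1 splices XBP1 mRNA into the form that encodes an active transcription factor, ATF6 is cut to release another, and both raise the transcription of chaperone and degradation genes. The exocrine pancreas is known for a heavy secretory load and for its need of this response. XBP1 is not itself a chaperone but the response's transcription factor, and HERPUD1 is a membrane protein of the degradation branch.

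The promoter sequences of these genes were searched for the response's known binding letters and are shown as a description. The genes were listed as genes of this same response, so matches in them are no independent evidence. In RefSeq promoters of build GRCh38.p14 (35116 windows of 300 bases, 250 before and 50 after a start), both strands were searched for the ER stress response element (CCAAT, a spacer of 9 bases, CCACG), for its type II form (ATTGG, a spacer of 1 base, CCACG), and for TGACGTGG, the core that XBP1 and ATF6 are known to bind. All 10 genes had a promoter in the table, in 16 windows. The first element was in 0.0769% of all windows and in those of HSPA5, HSP90B1, CALR, CANX, PDIA6 and XBP1. The type II form was in 0.0541% of all windows and in those of HERPUD1 and SDF2L1. TGACGTGG was in 0.729% of all windows and in 0 of the 16, and none of these letter strings was in the windows of PDIA4 and DNAJB9. Only exact matches within the windows were counted and later shown in capitals, so imperfect or more distant copies would be missed. Either element was thus found for 8 of 10 chaperone genes, against 44 of 27305 symbols (0.161%). Among the other folding factors listed for comparison, 4 of the 22 genes with a promoter held one (CRELD2, ERO1B, HYOU1 and SERP1), and among degradation, translocon, sensor, PERK arm, transport and cytosolic chaperone genes 0 did. The 250 bases before the HSPA5 start lie on the minus strand at chr9:125241344-125241593, with the element in capitals and 47 bases between it and the start; the element and 20 bases on each side lie outside any GENCODE 29 gene.
HSPA5: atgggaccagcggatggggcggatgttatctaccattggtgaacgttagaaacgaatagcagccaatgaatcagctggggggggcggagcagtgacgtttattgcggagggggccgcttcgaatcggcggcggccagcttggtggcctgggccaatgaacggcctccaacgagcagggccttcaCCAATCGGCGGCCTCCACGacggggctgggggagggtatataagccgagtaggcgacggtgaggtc

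The elements of the other genes are given with 20 bases on each side, in the direction of transcription and with the element in capitals, so that their layout can be compared. XBP1 (minus strand, chr22:28800583-28800641) has its element 33 bases before the start, and 15 of the bases shown lie in an annotated XBP1 exon. PDIA6 (minus strand, chr2:10812833-10812891) has it 67 bases before a start inside the annotated gene, with 12 exonic bases. CALR (plus strand, chr19:12938364-12938422) holds it reversed, 206 bases before the start and outside any gene. HERPUD1 (plus strand, chr16:56932005-56932055) has the type II form 106 bases before the start, with 8 exonic bases. SDF2L1 (plus strand, chr22:21642094-21642144) holds the type II form reversed, 177 bases before the start and outside any gene.
XBP1: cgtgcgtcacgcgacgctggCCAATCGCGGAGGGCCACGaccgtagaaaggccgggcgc
PDIA6: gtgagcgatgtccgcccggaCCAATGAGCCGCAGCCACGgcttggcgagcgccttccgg
CALR: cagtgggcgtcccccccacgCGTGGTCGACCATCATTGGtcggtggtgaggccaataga
HERPUD1: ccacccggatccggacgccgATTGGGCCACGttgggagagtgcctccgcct
SDF2L1: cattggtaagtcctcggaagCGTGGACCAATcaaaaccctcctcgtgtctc

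HSP90B1 and CANX carry theirs inside exons of longer annotated transcripts, so only the elements are shown. HSP90B1 (plus strand) has 2, at chr12:103930216-103930234 with 175 bases to the start and, reversed, at chr12:103930321-103930339 with 70 bases to the start. CANX (plus strand) has 1 at chr5:179698778-179698796, with 132 bases to the start. The outer letters of the element are fixed by the search, and the spacers between them differ. A match of letters is a description of the sequence, and binding was not measured.
HSP90B1, first: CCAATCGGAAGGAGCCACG
HSP90B1, second: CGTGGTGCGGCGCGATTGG
CANX: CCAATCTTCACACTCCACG

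A pair of libraries stood apart from their line, which bears on every CFPAC-1 comparison. Those labelled CFPAC-1 control 2 and control 3 had r = 0.990 between them over 12860 tested genes (a description across genes), a mean r of 0.803 with the other 4 CFPAC-1 libraries, while those 4 had a mean of 0.944 among themselves. Duct keratin KRT19 was at 7.42 and 7.67 FPKM in those control libraries and between 253.7 and 627 FPKM in the other 4. EPCAM (0.963 and 1.04 FPKM, against 11.2 to 14.85), MUC1, CLDN4 and CDH1 of the duct markers were also lower there. SOX9 (55.1 and 53.0 FPKM, against 13.2 to 18.9) and KRT18 (318 and 311 FPKM, against 125 to 254) were higher, while KRT7 and KRT8 overlapped. In every group libraries 2 and 3 were closer to each other (r of 0.987 to 0.990) than either was to library 1 (0.814 to 0.953), and whether they are repeats of 1 culture was not tested. BxPC-3 control 1 was closer to induced 1, 2 and 3 of its line (r of 0.967, 0.960 and 0.962) than to control 2 and 3 (0.9525 and 0.947). This bears on the BxPC-3 comparison of induced and control libraries. Of the other duct markers, KRT7 stayed at or under 2.005 FPKM and CDH1 at or under 0.892 FPKM in all CFPAC-1 libraries, where BxPC-3 libraries had 395.5 to 586 and 38.15 to 61.0 FPKM, so these 2 duct markers were at or near absence in CFPAC-1. KRT8, KRT18 and SOX9 of the same list were present in both lines, at 50.7 to 316, 125 to 318 and 13.2 to 55.1 FPKM in CFPAC-1 and at 43.1 to 149, 90.6 to 186 and 2.2 to 17.1 FPKM in BxPC-3. The 9 duct markers summed to 478 to 1100 FPKM in induced and 661 to 1110 FPKM in control CFPAC-1 libraries, and to 1434 to 1776 and 1526 to 1856 FPKM in BxPC-3. The 9 fibroblast markers summed to 26.0 to 110.1 FPKM in induced and 7.93 to 37.3 FPKM in control CFPAC-1 libraries, nearly all of it LUM where high, and to 1.37 to 1.68 and 1.45 to 1.95 FPKM in BxPC-3, with 4 of 9 reaching 1 FPKM in any library. In CFPAC-1 control 2 and 3 LUM was at or under 0.0532 FPKM. COL1A1, COL3A1 and THY1 reached 4.28, 2.06 and 1.73 FPKM there, and at most 0.140, 0.160 and 0.0215 FPKM in the other CFPAC-1 libraries. The 6 immune markers summed to 41.05 to 48.4 and 10.65 to 13.2 FPKM in CFPAC-1 and to 8.91 to 13.25 and 5.10 to 6.17 FPKM in BxPC-3, most of it CD68 or CD14, with PTPRC at or under 0.00981 FPKM. The 7 acinar and plasma cell markers were carried by SDC1 (20.5 to 304 FPKM in CFPAC-1, 76.8 to 129.7 FPKM in BxPC-3), with CPA1 and AMY2A at 0 throughout. The part of these differences in the results was not tested, and in bulk RNA fewer cells of a type and less RNA per cell cannot be told apart.

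Levels are in FPKM, sequenced fragments scaled to transcript length and to the library's total, so that they are relative within a library and comparable between genes per length. The 10 genes together made up 0.2695% to 0.523% of a library's summed FPKM. CALR, the calcium-binding lectin chaperone calreticulin, was the highest of the 10 in 11 of 12 libraries. HSPA5, the reticulum's Hsp70 (also called BiP), was the highest in the remaining one, CFPAC-1 induced 1, and the second in 10. PDIA4, CANX, HSP90B1 and PDIA6 followed at 43.5 to 241 FPKM, XBP1 at 21.15 to 51.9 FPKM and SDF2L1 at 9.40 to 35.2 FPKM. DNAJB9 and HERPUD1 had 2.17 to 17.6 and 3.94 to 16.5 FPKM, and the lowest places were shared by these and SDF2L1, which was the lowest of the 10 in CFPAC-1 induced 1. All 10 exceeded the test's filter (1 FPKM in 3 libraries) in every library.

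**Figure D1:**
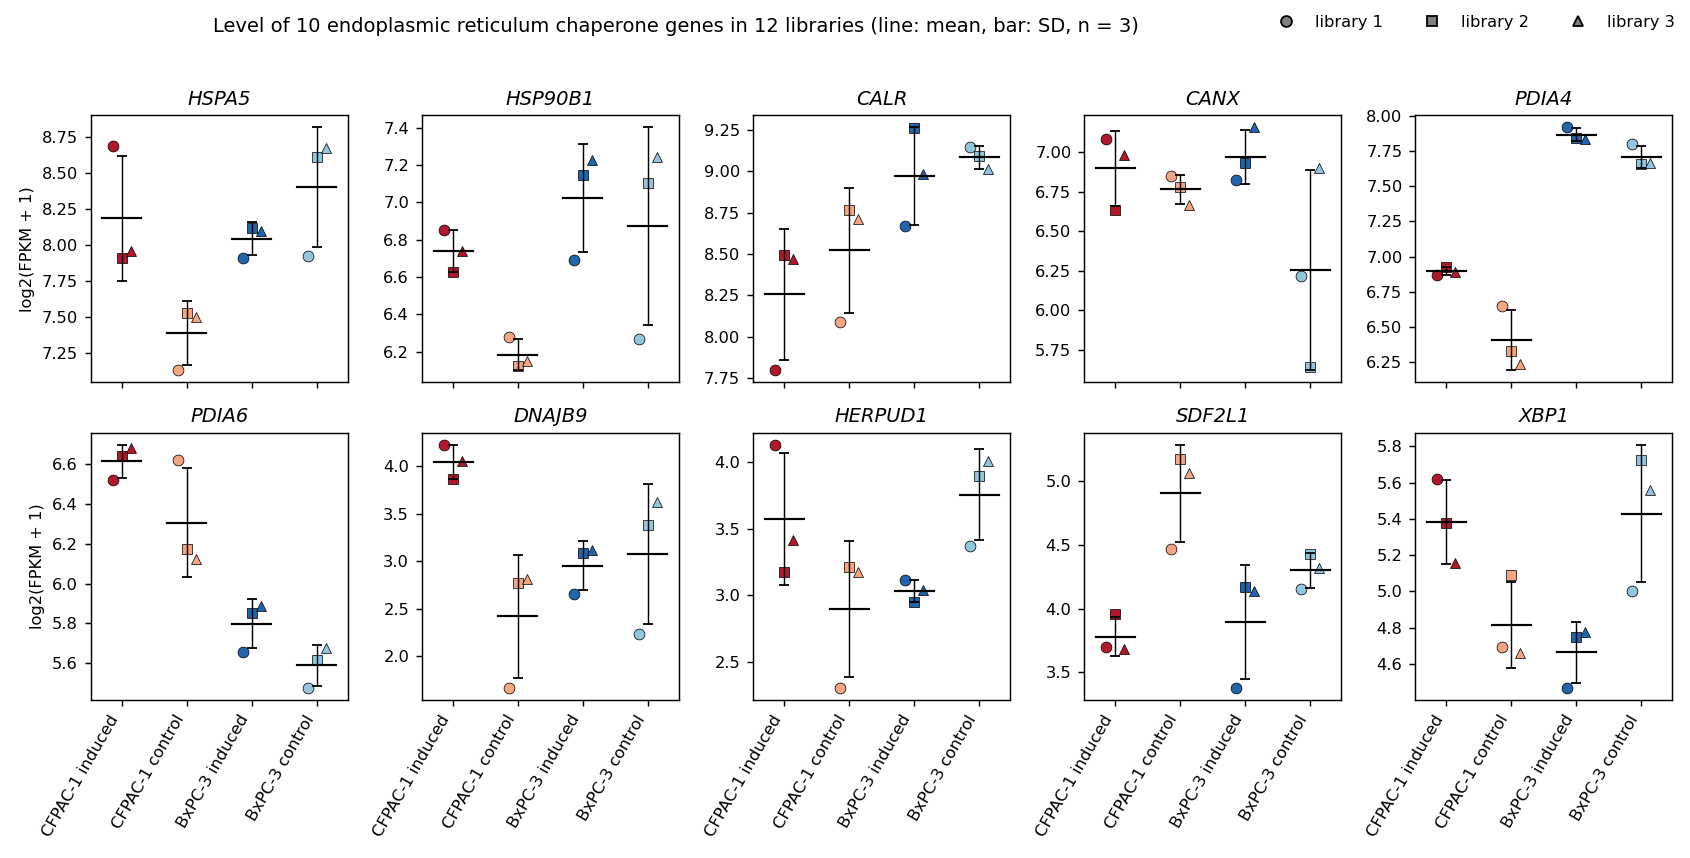
Level of each of the 10 genes as log2(FPKM + 1) in the 12 libraries, with symbols for libraries 1 to 3, a line for the mean and a bar for the SD (n = 3 per group). DNAJB9 and SDF2L1 separate the CFPAC-1 groups in opposite directions, and library 1 stands off from libraries 2 and 3 in many panels; each panel has its own axis.

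In CFPAC-1, the Hsp70 co-chaperone gene DNAJB9 and the disulfide isomerase gene PDIA4 rose on induction and the Hsp70 cofactor gene SDF2L1 fell, so 2 of 10 were called higher and 1 lower at an adjusted p under 0.05 (limma with Benjamini-Hochberg adjustment over all tested genes). Of all 12860 tested genes, 7.85% were called higher and 8.77% lower. The median log2 change of the 10 genes was 0.52, beside -0.092 for all tested genes. Every log2 change here is a difference of mean log2(FPKM + 1), which understates the change of low genes. Without control 2 and 3, DNAJB9 alone was called (1.06% of tested genes higher, 0.669% lower) and the median was 0.36, with the lone control assumed to vary like the other groups. With libraries 2 and 3 of each group averaged and counted as 1, an alternative chosen after seeing the data, limma called 0 of the 10 and 0 of all genes, while 3 of the 10 and 1487 of all genes had an unadjusted p under 0.05.

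HSPA5 (ENSG00000044574, GRCh38, chr9:125234853-125241330, minus strand) binds exposed hydrophobic stretches of unfolded chains and holds the stress sensors inactive. It stood at 412, 239.9 and 249 FPKM in induced CFPAC-1 libraries 1 to 3, against 139, 184 and 181 FPKM in control libraries 1 to 3. All induced values lay above all control values, and the highest and the lowest belonged to library 1 of each group. Its log2 change was 0.80 ± 0.26 (standard error), with an adjusted p of 0.0552, and 1.06 ± 0.37 with an adjusted p of 0.168 without control 2 and 3. Leaving out BxPC-3 control 1, which enters the shared spread, brought it past the threshold (0.0380).

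DNAJB9 (also called ERdj4; ENSG00000128590, chr7:108569568-108574850, plus strand) is a J-domain protein that recruits HSPA5 to the sensor IRE1 and to degradation substrates. Its level was 17.6, 13.5 and 15.6 FPKM in induced CFPAC-1 libraries and 2.17, 5.84 and 6.02 FPKM in control libraries. The groups did not overlap, with the lowest induced value above the highest control value. DNAJB9 changed by 1.63 ± 0.38 on the log2 scale, a factor of 3.09, with an adjusted p of 0.0184. Without control 2 and 3 it was 2.38 ± 0.46 with an adjusted p of 0.0389. The call was lost without CFPAC-1 induced 3 (adjusted p = 0.0572), with no filter on low genes (0.0611) and with CFPAC-1 fitted alone (0.0713). DNAJB9 shares 183 exon bases with THAP5 and 99 with PNPLA8 on the other strand, whose levels did not exceed 2.69 and 5.57 FPKM in any library; the use of strand in counting is not given in the sources used here.

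SDF2L1 (ENSG00000128228, chr22:21642261-21644298, plus strand) encodes a small protein that forms a complex with J-domain proteins and prolongs the HSPA5 cycle. Its values were 12.0, 14.5 and 11.8 FPKM in induced CFPAC-1 libraries, against 21.2, 35.2 and 32.5 FPKM in control libraries. Every induced library was lower than every control library, and control 1 was the nearest to them. SDF2L1 changed by -1.13 ± 0.25 on the log2 scale, a factor of 0.458, with an adjusted p of 0.0151. Without control 2 and 3 it was -0.69 ± 0.31 with an adjusted p of 0.2835, and the call was also lost without control 2 alone (0.0729), control 3 alone (0.0708) or induced 3 (0.0557), and with the line fitted alone (0.0665).

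HSP90B1 (also called GRP94; ENSG00000166598, chr12:103930107-103953645, plus strand) is the reticulum's Hsp90, a chaperone of integrins and Toll-like receptors. Levels of 114.5, 97.7 and 106 FPKM in induced CFPAC-1 libraries stood above 76.6, 68.6 and 70.0 FPKM in control libraries without overlap. The log2 change was 0.56 ± 0.25 with an adjusted p of 0.1325. Without control 2 and 3 it was 0.46 ± 0.37, also not called. Its pseudogenes HSP90B2P and HSP90B3P, which could share reads, stayed at or under 0.124 FPKM.

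The lectin chaperones CALR and CANX (calnexin, its membrane-bound relative) hold monoglucosylated glycoproteins. CALR (ENSG00000179218) lies at chr19:12938578-12944489 and CANX (ENSG00000127022) at chr5:179678628-179730925, both on the plus strand. CALR was at 221.5, 360.3 and 354 FPKM in induced and at 271, 435 and 418 FPKM in control CFPAC-1 libraries, with both libraries 1 the low ones and the groups overlapping. Its log2 change was -0.27 ± 0.25 (adjusted p = 0.470), and it turned to 0.17 ± 0.32 without control 2 and 3. CANX had 134, 98.1 and 126 FPKM in induced and 114, 109 and 100.5 FPKM in control libraries, overlapping, with a log2 change of 0.14 ± 0.27 and of 0.05 ± 0.41 without control 2 and 3.

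PDIA4 (also called ERp72) and PDIA6 (also called P5) are disulfide isomerases that work with HSPA5. PDIA4 (ENSG00000155660) lies at chr7:149003062-149028641 and PDIA6 (ENSG00000143870) at chr2:10783391-10837977, both on the minus strand. PDIA4 was at 116, 120.5 and 118 FPKM in induced CFPAC-1 libraries, against 99.1, 79.3 and 74.3 FPKM in control libraries. The induced libraries lay close together and above every control library, of which control 1 was the nearest. The log2 change was 0.49 ± 0.15, a factor of 1.41, with an adjusted p of 0.0479, just inside the threshold. The change was 0.25 ± 0.19 with an adjusted p of 0.541 without control 2 and 3, and leaving out any 1 library other than CFPAC-1 control 1, BxPC-3 control 1 or BxPC-3 induced 1 ended the call (9 of 12 fits, adjusted p up to 0.197). PDIA6 had 90.9, 98.8 and 101.5 FPKM in induced and 97.35, 71.2 and 68.6 FPKM in control libraries, with control 1 inside the induced range. Its log2 change was 0.31 ± 0.17 (adjusted p = 0.216), -0.0058 ± 0.20 without control 2 and 3, and 0.47 (0.02375) without control 1. PDIA6 shares 1033 exon bases with ATP6V1C2 on the other strand, which stayed at or under 0.370 FPKM.

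HERPUD1 (ENSG00000051108, chr16:56932048-56944863, plus strand) joins the ubiquitin ligase complex that extracts misfolded proteins for degradation. Induced CFPAC-1 libraries had 16.5, 8.01 and 9.66 FPKM and control libraries 3.94, 8.28 and 8.02 FPKM. The high value of induced 1 and the low value of control 1 stood apart, while libraries 2 and 3 of both groups overlapped. The log2 change was 0.68 ± 0.30 (adjusted p = 0.133) and 1.27 ± 0.37 (adjusted p = 0.106) without control 2 and 3. XBP1 (ENSG00000100219, chr22:28794555-28800597, minus strand), the transcription factor, was at 48.1, 40.6 and 34.7 FPKM in induced and at 24.9, 33.05 and 24.3 FPKM in control libraries. All induced values were above all control values, narrowly so for induced 3 against control 2. Its log2 change was 0.57 ± 0.22 (adjusted p = 0.0943), and 0.69 ± 0.31 without control 2 and 3 (adjusted p = 0.275). The values count all XBP1 mRNA of the gene, so the spliced and unspliced forms were not separated.

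Without overlap of the groups, 5 of the 10 (HSPA5, HSP90B1, PDIA4, DNAJB9 and XBP1) were higher in induced CFPAC-1 libraries, where 14% of tested genes were, and SDF2L1 was lower, where 17.6% were. Mitochondrially encoded genes took 11.6%, 21.2% and 22.8% of summed FPKM in induced and 34.0%, 19.9% and 19.9% in control CFPAC-1 libraries, which moves every FPKM of a library. With values rescaled to the sum of the other genes, DNAJB9 kept a log2 change of 1.52 (adjusted p = 0.0189) and SDF2L1 one of -1.25 (0.00540), while PDIA4 had 0.36 (0.152). Under that scaling 30.5% of all called genes were higher, against 47.2% with FPKM as deposited.

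**Figure D2:**
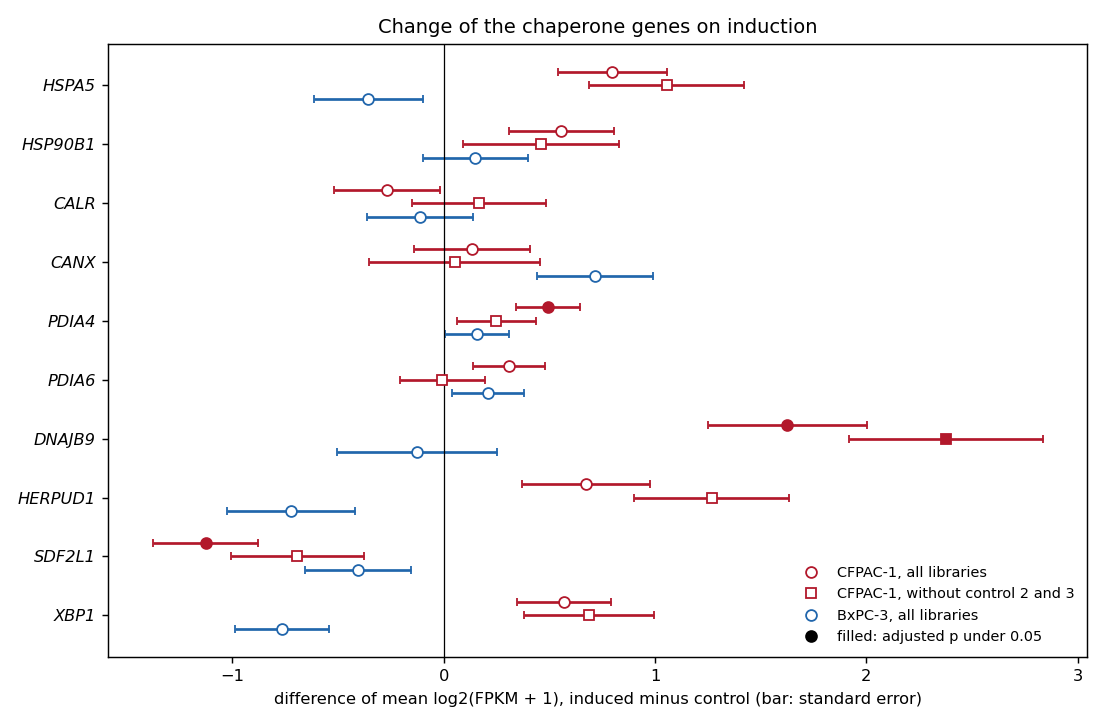
Change of each gene on induction (induced minus control, difference of the group means on the log2(FPKM + 1) scale), with the standard error as a bar. CFPAC-1 is shown with all libraries and without control 2 and 3, BxPC-3 with all libraries, and filled symbols mark an adjusted p under 0.05. DNAJB9 is the one gene filled in both CFPAC-1 fits, and no BxPC-3 symbol is filled.

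In BxPC-3, the line with the larger gain in ciliated cells, none of the 10 genes passed the test: limma with Benjamini-Hochberg adjustment called 0 higher and 0 lower, and 3 (CANX, HERPUD1 and XBP1) had an unadjusted p under 0.05. Of all tested genes 0.334% were called (0.295% higher, 0.0389% lower) and 8.52% had an unadjusted p under 0.05. The median log2 change of the 10 was -0.12, beside 0.063 for all tested genes. Without overlap, PDIA4 was higher (12.4% of tested genes were) and HERPUD1 and XBP1 were lower (4.84% were).

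XBP1 had 21.15, 25.9 and 26.4 FPKM in induced BxPC-3 libraries, against 31.1, 51.9 and 46.2 FPKM in control libraries. Every induced library lay under every control library, and libraries 1 were the lowest of their groups. The log2 change was -0.77 ± 0.22, with a p of 0.00549 and an adjusted p of 0.318 (limma). It passed the test without BxPC-3 control 1 (adjusted p = 0.0459), and in 11 of the 12 fits that each left out 1 library it did not. HERPUD1 followed the same order, at 7.66, 6.71 and 7.21 FPKM in induced and 9.32, 13.9 and 15.1 FPKM in control BxPC-3 libraries. The induced libraries were tightly grouped under the control ones, with a log2 change of -0.72 ± 0.30 and an adjusted p of 0.542.

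HSPA5 stood at 240, 278 and 274 FPKM in induced and at 242, 389.6 and 407 FPKM in control BxPC-3 libraries. Control 1 lay at the level of the induced libraries and control 2 and 3 lay above them, so that the groups overlapped and the log2 change of -0.36 ± 0.26 did not pass (adjusted p = 0.790). DNAJB9 showed 5.28, 7.455 and 7.67 FPKM in induced and 3.705, 9.39 and 11.3 FPKM in control libraries, where control 1 was the lowest and control 3 the highest value of all 6. Its log2 change was -0.13 ± 0.38. SDF2L1 was at 9.40, 17.0 and 16.6 FPKM in induced and 16.8, 20.5 and 19.0 FPKM in control libraries, with an overlap between induced 2 and control 1 and a log2 change of -0.41 ± 0.25 (adjusted p = 0.7295).

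CANX was at 112, 121 and 141.5 FPKM in induced and 73.4, 48.9 and 119 FPKM in control BxPC-3 libraries, where control 3 fell inside the induced range. This gave a log2 change of 0.72 ± 0.27 (adjusted p = 0.492). PDIA4 was at 241, 229 and 228 FPKM in induced and 222, 201 and 202 FPKM in control libraries, close but not overlapping, with a log2 change of 0.16 ± 0.15. HSP90B1 (102, 141 and 149 FPKM in induced, 76, 136.5 and 151 FPKM in control libraries) and CALR (406.5, 612 and 504.5 FPKM in induced, 565, 546 and 515 FPKM in control libraries) overlapped and changed by 0.15 ± 0.25 and -0.11 ± 0.25. PDIA6, at 49.5, 56.7 and 58.25 FPKM in induced and 43.5, 48.05 and 50.25 FPKM in control libraries, overlapped by the single pair of induced 1 and control 3 and changed by 0.21 ± 0.17.

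Library number 1 and numbers 2 and 3 gave different sizes of change, which is a description without a test. In CFPAC-1 the HSPA5 change was 1.555 on the log2 scale within number 1 and 0.42 within numbers 2 and 3. DNAJB9 gave 2.55 and 1.165, HERPUD1 1.83 and 0.10, and XBP1 0.92 and 0.39. SDF2L1 was the larger within numbers 2 and 3, at -0.77 within number 1 and -1.30 within numbers 2 and 3. The 5 genes thus kept their signs between the numbers in CFPAC-1, and of the 10 genes PDIA6 alone (-0.10 and 0.51) did not. For HERPUD1 the induced and control libraries numbered 2 and 3 overlapped, so little can be read from its kept sign. Numbers 2 and 3 also hold the CFPAC-1 control libraries that stood apart from their line. In BxPC-3, HERPUD1 (-0.25 and -0.96) and XBP1 (-0.53 and -0.88) were negative within both, while DNAJB9 (0.42 and -0.40) and CALR (-0.47 and 0.07) turned.

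**Figure D3:**
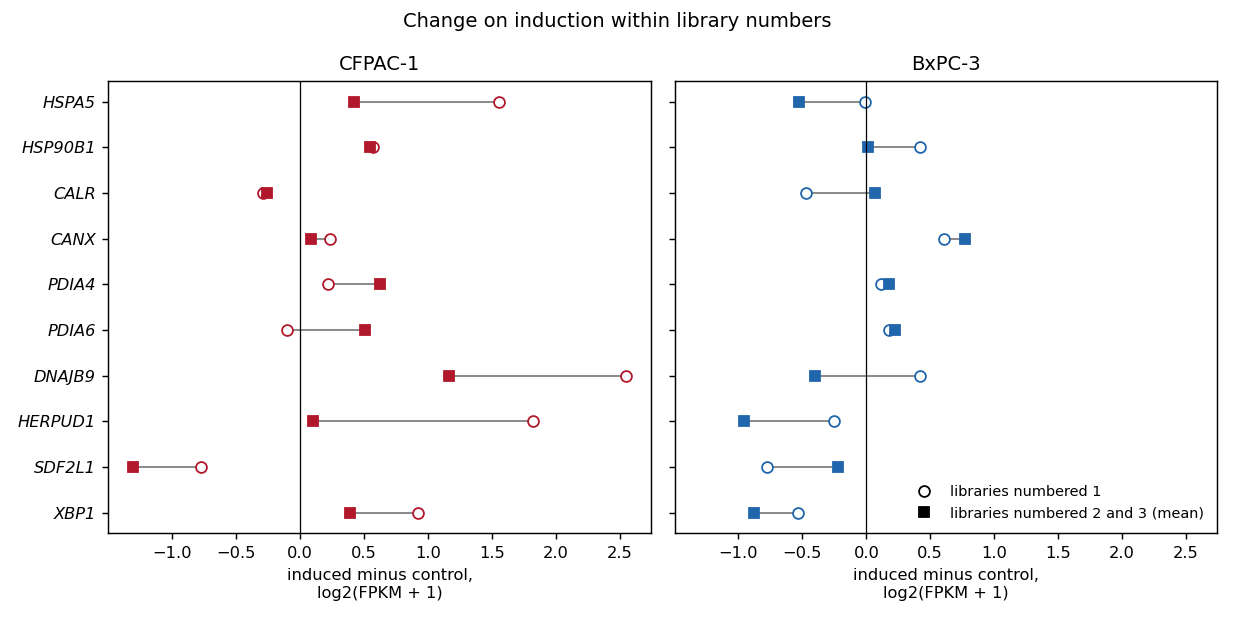
Change on induction within libraries numbered 1 (open circles) and within numbers 2 and 3 (filled squares, mean), as the difference of log2(FPKM + 1), for each line. The CFPAC-1 changes of HSPA5, DNAJB9, HERPUD1 and XBP1 are larger within number 1, at 1.555, 2.55, 1.83 and 0.92.

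The changes of the lines were then set against each other in 1 test. No gene of the 10 passed it: limma called 0 higher and 0 lower for the difference of the changes, BxPC-3 minus CFPAC-1, and 4 (HSPA5, DNAJB9, HERPUD1 and XBP1) had an unadjusted p under 0.05. Of all tested genes 2.45% were called (1.34% higher, 1.11% lower) and 24.3% had an unadjusted p under 0.05. XBP1 was the nearest, with a difference of -1.335 ± 0.32 and an adjusted p of 0.0525. DNAJB9 differed by -1.75 ± 0.535 (0.0933), HERPUD1 by -1.40 ± 0.43 (0.0946) and HSPA5 by -1.155 ± 0.37 (0.101). SDF2L1 differed by 0.72 ± 0.35 (0.2305), and the other 5 by -0.41 to 0.58. Without CFPAC-1 control 2 and 3 the differences were -2.505 for DNAJB9 (adjusted p = 0.0884), -1.99 for HERPUD1 (0.0884), -1.45 for XBP1 (0.119) and -1.41 for HSPA5 (0.178); limma again called 0 of the 10, and 0.428% of all genes. The XBP1 difference passed after quantile normalization (adjusted p = 0.0365), without CFPAC-1 control 1 (0.0128) and without BxPC-3 control 1 (0.0176). Others also passed with 1 control library left out: DNAJB9, HERPUD1 and SDF2L1 without CFPAC-1 control 1 (0.0413, 0.0405 and 0.0410), and DNAJB9 and HSPA5 without BxPC-3 control 1 (0.0265 and 0.0414).

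Between the lines, the means of the induced libraries could be compared without any CFPAC-1 control library. The standard errors and p-values still drew on all 12 libraries, those controls included, through the shared spread. PDIA4 and CALR were higher and PDIA6, DNAJB9 and XBP1 lower in induced BxPC-3 than in induced CFPAC-1 cells, which makes 2 of 10 higher, where 21.4% of tested genes were, and 3 lower, where 14.8% were. PDIA4 averaged 233 ± 7.44 FPKM in BxPC-3 and 118 ± 2.34 FPKM in CFPAC-1 (SD, n = 3 each), a log2 difference of 0.97 ± 0.15 with an adjusted p of 0.000595 (limma). PDIA6 ran the other way, at 54.8 ± 4.68 FPKM in BxPC-3 and 97.1 ± 5.54 FPKM in CFPAC-1, with a log2 difference of -0.81 ± 0.17 and an adjusted p of 0.00373. These isomerases separated the lines without overlap of any library. DNAJB9 (6.80 ± 1.32 FPKM in BxPC-3, 15.6 ± 2.04 FPKM in CFPAC-1) differed by -1.095 ± 0.38 with an adjusted p of 0.0418. XBP1 (24.5 ± 2.885 FPKM in BxPC-3, 41.1 ± 6.72 FPKM in CFPAC-1) differed by -0.72 ± 0.22 with an adjusted p of 0.0265. CALR (507.5 ± 102.6 FPKM in BxPC-3, 312 ± 78.4 FPKM in CFPAC-1) differed by 0.71 ± 0.25 with an adjusted p of 0.04425. Without overlap, 2 of the 10 (PDIA4 and CALR) were higher, where 32.1% of tested genes were, and 4 (PDIA6, DNAJB9, HERPUD1 and XBP1) were lower, where 22.4% were. HERPUD1 was lower in every induced BxPC-3 library without passing the test (-0.54 ± 0.30, adjusted p = 0.190), and HSPA5, HSP90B1, CANX and SDF2L1 overlapped, with differences of -0.14, 0.28, 0.07 and 0.12. Leaving out 1 library ended the calls of PDIA4 and PDIA6 in 0 of 12 fits. The DNAJB9 call ended without any 1 of the 6 induced libraries or BxPC-3 control 2 (adjusted p up to 0.123), and the XBP1 call without any 1 induced library other than CFPAC-1 induced 3 (up to 0.0805). The CALR call held only without CFPAC-1 control 1, CFPAC-1 control 2 or BxPC-3 induced 1 and ended in the other 9 fits (up to 0.155). With libraries 2 and 3 averaged and counted as 1, none of the 5 passed, with PDIA4 at an adjusted p of 0.0613 and PDIA6 at 0.115, while 4 of the 10 had an unadjusted p under 0.05.

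The groups ranked differently for each gene. By mean level, HSPA5 ran from BxPC-3 control (346 ± 90.8 FPKM) over CFPAC-1 induced (300.1 ± 96.65) and BxPC-3 induced (264 ± 20.75) to CFPAC-1 control (168 ± 24.9), and only the last neighbours did not overlap. HERPUD1 and XBP1 also had BxPC-3 control first and CFPAC-1 induced second, at 12.75 ± 3.04 and 11.4 ± 4.50 FPKM and at 43.05 ± 10.8 and 41.1 ± 6.72 FPKM, and these overlapped. PDIA4 was the one gene whose groups were apart at each of the 3 steps, from BxPC-3 induced over BxPC-3 control (209 ± 11.9) and CFPAC-1 induced to CFPAC-1 control (84.25 ± 13.1 FPKM). DNAJB9 was highest in CFPAC-1 induced, apart from BxPC-3 control (8.12 ± 3.94 FPKM), and lowest in CFPAC-1 control (4.68 ± 2.17 FPKM). SDF2L1 had CFPAC-1 control first (29.6 ± 7.425 FPKM), apart from BxPC-3 control (18.75 ± 1.85 FPKM), and the induced groups last (14.3 ± 4.27 FPKM in BxPC-3 and 12.8 ± 1.504 FPKM in CFPAC-1), which overlapped.

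Ratios of 2 of these genes within a library do not depend on how the library was scaled. The pairs were chosen after their values were seen and are a description. DNAJB9 over SDF2L1 was 1.47, 0.932 and 1.32 in induced CFPAC-1 libraries, against 0.103, 0.166 and 0.185 in control libraries. In BxPC-3 it was 0.562, 0.439 and 0.462 in induced and 0.2205, 0.458 and 0.594 in control libraries. The ratio thus parted the CFPAC-1 groups widely, in libraries 1 as in 2 and 3, and overlapped in BxPC-3. HSPA5 over CALR was 1.86, 0.666 and 0.703 in induced and 0.514, 0.423 and 0.432 in control CFPAC-1 libraries, and 0.5904, 0.454 and 0.542 in induced and 0.4285, 0.714 and 0.791 in control BxPC-3 libraries.

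**Figure D4:**
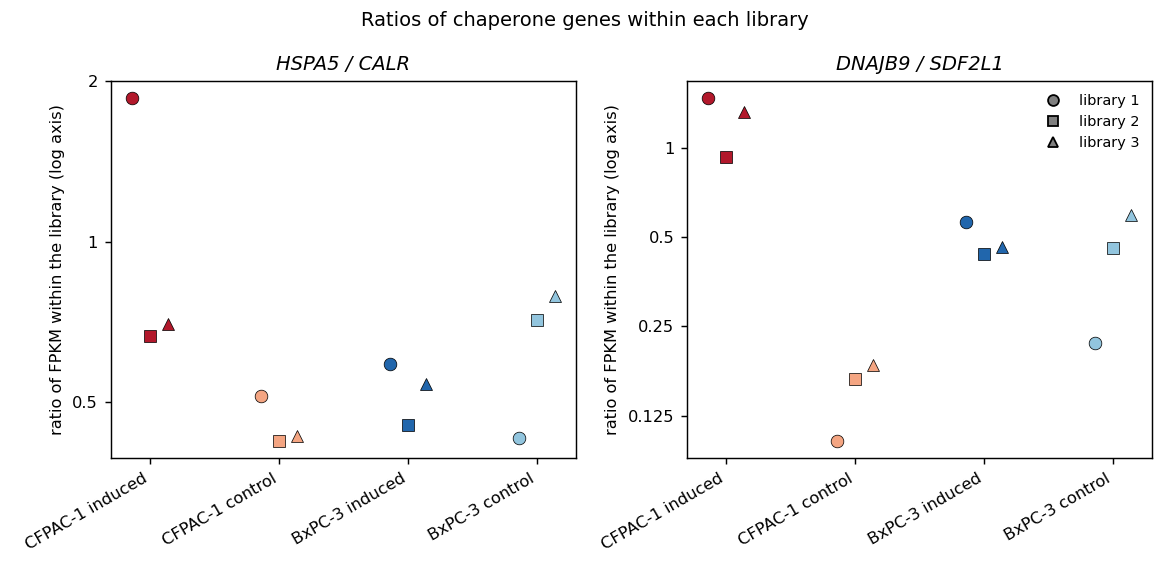
Ratio of FPKM within each library (log axis) for HSPA5 over CALR and for DNAJB9 over SDF2L1, with symbols for libraries 1 to 3. DNAJB9 over SDF2L1 lies between 0.932 and 1.47 in induced and between 0.103 and 0.185 in control CFPAC-1 libraries.

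The rest of the pathway was described list by list, without a test of any list as a whole. Of 22 other folding factors tested, 4 rose in CFPAC-1 and 0 fell, where 7.85% of all tested genes were called higher and 8.77% lower, with a median log2 change of 0.13. Rescaling without mitochondrial genes gave 3 higher and 1 lower with a median of 0.0095. ERO1A, the oxidase that recharges disulfide isomerases, averaged 65.25 ± 18.9 FPKM in induced and 10.55 ± 2.93 FPKM in control CFPAC-1 libraries, and its log2 change was 2.51 ± 0.23 (limma, adjusted p = 0.000325), and 2.11 (0.01185) without control 2 and 3. P4HB, the founding disulfide isomerase, changed by 1.25 (adjusted p = 0.00364) and PDIA5 by 0.84 (0.0106), and both missed the threshold without those libraries (0.0749 and 0.185). In BxPC-3, 1 of the 22 rose, where 0.295% of all tested genes were called higher. It was again ERO1A, at 60.6 ± 5.20 FPKM in induced and 23.85 ± 1.93 FPKM in control libraries, a log2 change of 1.31 ± 0.23 (adjusted p = 0.0417). That call was lost under quantile normalization and under rescaling without mitochondrial genes, where 0 of the 22 passed. The most abundant of the list were P4HB, at a change of 0.69 in BxPC-3 (adjusted p = 0.276), and the prolyl isomerase gene PPIB, at 0.18 in CFPAC-1 and 0.15 in BxPC-3.

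Genes of degradation, entry and export are the reticulum's other machinery. Of 18 degradation genes, VCP (the ATPase that pulls substrates out, -0.95, adjusted p = 0.0175) and FAF2 (-0.79, 0.0442) fell in CFPAC-1, beside 8.77% of all tested genes, with a list median of -0.15; quantile normalization called 2 higher and 1 lower. Without control 2 and 3 the calls of VCP and FAF2 were lost and the median of the 18 was 0.21, beside -0.052 for all tested genes. Beside the 7.85% of all tested genes that rose, SEC61G, a channel subunit, rose as 1 of 22 translocon and signal peptidase genes (0.92, adjusted p = 0.0410; 0.0819 without those libraries), and the median was 0.03, or -0.10 when rescaled without mitochondrial genes. The abundant oligosaccharyltransferase genes DDOST and RPN2 changed by -0.385 and -0.0028 in CFPAC-1 and by 0.19 and 0.44 in BxPC-3, not called. In BxPC-3 all 22 had a positive change with a median of 0.24, or 0.18 when rescaled without mitochondrial genes. Of all 12860 tested genes 7605 had a positive change there, with a median of 0.063. Of the 22, 0 passed and 2 had an unadjusted p under 0.05 (limma), beside 8.52% of all tested genes. Of 21 transport genes 2 rose in CFPAC-1, where 7.85% of all tested genes did, with a list median of 0.10. KDELR3, a receptor that returns chaperones from the Golgi, rose by 1.98 (limma, adjusted p = 0.00259), and by 1.27 without control 2 and 3. SURF4, a cargo receptor, rose by 1.13 (limma, adjusted p = 0.0353), and by 0.47 without them. Quantile normalization called 1 of the 21 higher. Rescaling without mitochondrial genes also called 1, with a median of -0.017. Of 10 sensor and protease genes 0 passed in either line (limma), with medians of 0.16 in CFPAC-1 and -0.03 in BxPC-3. In each line 2 of them had an unadjusted p under 0.05. Of all 12860 tested genes, 4633 had one in CFPAC-1 and 1096 in BxPC-3.

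The PERK arm slows translation and raises the transcription factor ATF4, which amino acid shortage also raises. Its genes gave 4 of 11 higher and 0 lower in CFPAC-1, where 7.85% of all tested genes were higher, with a median log2 change of 0.75. DDIT3, the transcription factor CHOP, was at 50.03, 50.3 and 33.8 FPKM in induced CFPAC-1 libraries, against 2.745, 14.2 and 15.1 FPKM in control libraries. Its log2 change was 2.21 ± 0.45 with an adjusted p of 0.0111, and 3.59 (0.00158) without control 2 and 3. TRIB3, a pseudokinase induced by CHOP, rose by 1.28 (adjusted p = 0.00839) and CEBPB by 0.64 (0.04155), and both missed the threshold without those libraries (0.0736 and 0.136). DDIT4 rose by 2.465 (0.0287) and was not called without them (0.524). The 4 called higher without control 2 and 3, where 1.06% of all tested genes were, were DDIT3, NUPR1, SESN2 and CHAC1, the last 3 named after their values were seen, with changes of 2.30, 1.88 and 1.60. In BxPC-3, 0 of 11 passed, with a median of -0.34. Of the 11, 3 had an unadjusted p under 0.05 (limma), beside 8.52% of all tested genes. ATF4, the arm's transcription factor, changed by 0.38 in CFPAC-1 (adjusted p = 0.375) and by -0.69 in BxPC-3 (0.563).

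Of 21 cytosolic chaperone genes 9 fell and 0 rose in CFPAC-1, where 8.77% of all tested genes fell and 7.85% rose, with a median log2 change of -0.64 (-0.62 after quantile normalization and -0.77 when rescaled without mitochondrial genes). BAG3, an Hsp70 cofactor, fell by 1.70 (adjusted p = 0.00682), and the chaperonin subunits CCT2 and TCP1 fell by 1.17 (0.0223) and 1.07 (0.0442). The most abundant, HSP90AB1 and HSPA8, changed by -0.53 (0.0633) and -0.40 (0.2655). Without control 2 and 3 the calls were lost. Of the 21, 0 then had a positive change and the median was -0.50, beside -0.052 for all tested genes. Of 9 mitochondrial chaperone genes HSPE1 (-1.08, adjusted p = 0.0381) and HSPD1 (-0.85, 0.0235) fell, 3 had a positive change, and without control 2 and 3 neither call held (adjusted p = 0.464 and 0.206). In BxPC-3, 0 of the 21 and 0 of the 9 passed in limma, where 0.334% of all tested genes did, with medians of 0.13 and 0.34. An unadjusted p under 0.05 was found for 0 and 1 of them, beside 8.52% of all tested genes.

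**Figure D5:**
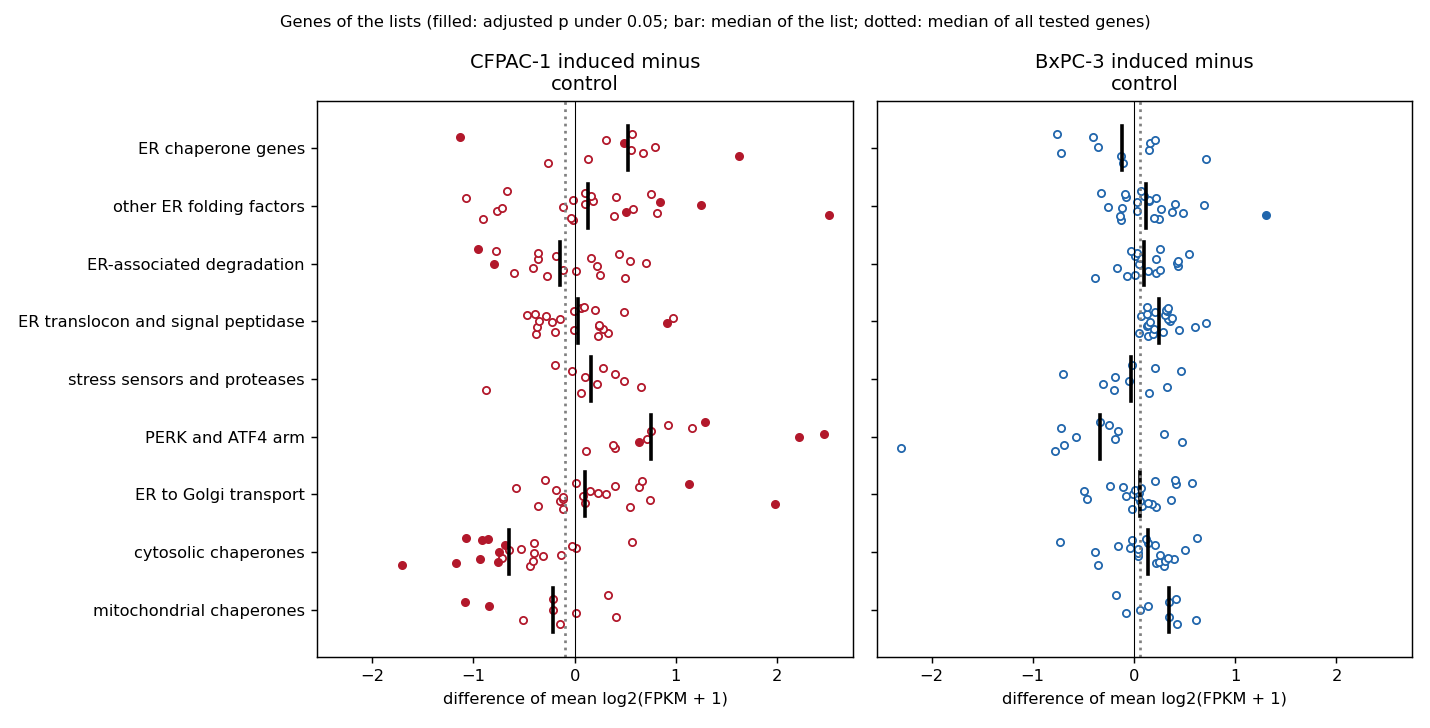
Change on induction of every tested gene of 9 lists, induced minus control on the log2(FPKM + 1) scale, for CFPAC-1 (left) and BxPC-3 (right). Filled points have an adjusted p under 0.05, bars are list medians and the dotted line is the median of all tested genes (-0.092 and 0.063). The chaperone genes of the reticulum have a median of 0.52 and those of the cytosol one of -0.64 in CFPAC-1.

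Genes whose pattern was most like that of HSPA5 were sought among 5700 genes of mean FPKM of at least 5, by the root mean square difference of centred log2(FPKM + 1). Over the 12 libraries the nearest outside the 10 were ELL2 (0.174), SERP1 (0.202), ALG2 (0.207) and CCNB1IP1 (0.217). Of the 10 themselves, HERPUD1 was the nearest at 0.247 (rank 11), then HSP90B1 at 0.287 (rank 28) and XBP1 at 0.334 (rank 59), while SDF2L1 was at 0.814 (rank 3983). Within the 6 BxPC-3 libraries the nearest were BCL3 (0.0264), PITHD1 (0.0402), MTHFD2 (0.0625), C1orf52 (0.0627) and EHD4 (0.0637), and XBP1 and HERPUD1 were at 0.219 (rank 379) and 0.2196 (rank 386). The nearest genes thus differed between these sets of libraries, which share the 6 BxPC-3 libraries, and the measure reads differences between lines and between library numbers as well as induction.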

How the data were processed

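Gene expression was measured by RNA-seq in 12 libraries of 2 cell lines, from total RNA, per the labels. The authors deposited 1 table of log2(FPKM + 1) per gene and library, per the file headers. Per the submitters' processing notes, FastQC, StringTie and the build GRCh38 were used, without versions; the aligner is not given in the sources used here, nor are annotation and strand. Without counts the library depth is unknown, and no counting interval can be given. FPKM was recovered by undoing the log2. Coordinates, 1-based on GRCh38, came from GENCODE 29, which held 58457 of the 60564 identifiers (96.5%), and sequences from RefSeq (GRCh38.p14).

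Genes with at least 1 FPKM in at least 3 libraries (12860) entered linear models of log2(FPKM + 1), pseudocount 1, in limma 3.58.1 (R 4.3.3), with 4 group means over all 12 libraries (8 residual degrees of freedom). The two-sided p-values were adjusted by Benjamini-Hochberg over all tested genes, with a threshold of 0.05, and the fit was tested on simulated data. Other steps ran in Python 3.11.15. Samples were grouped by their titles. All 10 genes are named in every comparison; from each other list, up to 3 genes past the threshold by size of change and the 2 of highest mean level were chosen, with exceptions stated. For HSPA5, the 5 nearest genes of mean FPKM of at least 5 were chosen, of which 1 is not reported here. The 10 genes and the lists were chosen with earlier results of these data known. Alternatives covered the pseudocount, filters, scaling, variance model, replicate block, the samples fitted and each library left out.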

Additional observations from a re-analysis of the deposited data

Results flagged for a closer look

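Genes of the wider pathway whose change on induction differed between the lines, by the test of the difference itself (limma, adjusted p under 0.05), are given here. DDIT3 differed by -2.787 on the log2 scale, BxPC-3 minus CFPAC-1, with an adjusted p of 0.0466. It averaged 5.54 ± 0.464 FPKM in induced and 8.81 ± 1.63 FPKM in control BxPC-3 libraries, and 44.7 ± 9.41 FPKM in induced and 10.7 ± 6.87 FPKM in control CFPAC-1 libraries (SD, n = 3 each). Without CFPAC-1 control 2 and 3 the difference was -4.16 (adjusted p = 0.00259). TRIB3 differed by -1.625 (adjusted p = 0.0395) and KDELR3 by -1.80 (0.0441), and without those libraries they missed the threshold (0.106 and 0.167). The cytosolic chaperone genes CCT5 and STIP1 differed by 1.33 (0.0446) and 0.97 (0.0457), and likewise missed it (0.165 and 0.123). These are 5 of the 134 tested genes of the 8 wider lists (3.73%), a share near the 2.45% of all tested genes called, so nothing is read from their number.

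XBP1 was flagged because every induced BxPC-3 library lay under every control library of that line, while every induced CFPAC-1 library lay above every control library of that line. Of all tested genes, 4.84% were lower without overlap in BxPC-3 and 14% were higher without overlap in CFPAC-1. The share of genes with both was not computed, so nothing is read from this pattern. The difference of the changes was -1.335 ± 0.32, and its test missed the threshold (limma, adjusted p = 0.0525).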

How the results depend on the processing

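Of the 10 genes, 2 were called higher and 1 lower in CFPAC-1, 0 in BxPC-3, 0 for the difference, and 2 higher and 3 lower between the induced lines, with 2138, 43, 315 and 4660 genes called in all (limma). A pseudocount of 0.1 left 1 of 10 higher in CFPAC-1 and 1 between lines, and 25 (BxPC-3) and 163 (difference) genes in all. No filter left 1 and 1, with 73 of 37114 tested genes in BxPC-3. A mean FPKM of at least 5 gave 1329, 11, 162 and 2140 of 6067 tested genes. Both settings changed the number of tested genes from 12860, so their counts cannot be compared directly with the main ones. Quantile normalization left 1 higher in CFPAC-1, called 1 lower for the difference, and turned CANX in CFPAC-1 (-0.035) and SDF2L1 between lines (-0.049); it shifted the median of all genes between lines to 0.00084, from 0.12. The share of calls that were higher was then 36.0% for the difference and 49.4% between lines, beside 54.6% and 59.0%, and 66.75% for the difference when rescaled without mitochondrial genes, which left 1 higher in CFPAC-1. Each line fitted alone gave 0 and 0 of 10 in CFPAC-1 (6 with an unadjusted p under 0.05), with 364 genes, and 13 genes in BxPC-3.

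Without CFPAC-1 control 2 and 3, 1 was higher and 0 lower in CFPAC-1, with 222 genes, and 55 for the difference; CALR (0.17) and PDIA6 (-0.0058) turned in CFPAC-1, as did their differences (-0.28 and 0.21). Numbers 2 and 3 only gave 5 higher and 8714 genes in CFPAC-1, 1 higher, 4 lower and 5396 genes in BxPC-3, 1 higher, 7 lower and 8023 genes for the difference, and 5 higher and 8728 genes between lines, and turned CALR in BxPC-3 (0.067) and HSPA5 between lines (0.17). Averaged and counted as 1, libraries 2 and 3 left 0 of 10 in every comparison and 0, 0, 0 and 1286 genes (1487, 187, 657 and 3560 with an unadjusted p under 0.05), and turned DNAJB9 in BxPC-3 (0.0088) and CANX between lines (-0.012). The causes were not tested.

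Deviations of same-numbered libraries had r of -0.080 to -0.020 in CFPAC-1 and 0.054 to 0.151 in BxPC-3, positive for all 3 numbers there but not all over 0.1, so the numbers were not taken to pair the libraries. Between number 1 and numbers 2 or 3, r was -0.165 to -0.077 in BxPC-3 and 0.031 to 0.074 in CFPAC-1. Between numbers 2 and 3 it was 0.067 and 0.152 in BxPC-3 and -0.039 and -0.060 in CFPAC-1. The replicate block called the same numbers of the 10, with 2428, 33, 306 and 4881 genes in all.

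Leaving out each library in turn gave 0 to 3 higher, 0 to 1 lower and 506 to 5403 genes in CFPAC-1; 0 higher, 0 to 1 lower and 2 to 249 genes in BxPC-3; 0 to 1 higher, 0 to 3 lower and 0 to 4148 genes for the difference; and 1 to 2 higher, 1 to 3 lower and 3428 to 6078 genes between lines. Changes that turned were HSP90B1 (-0.15 to 0.34), DNAJB9 (-0.55 to 0.14) and CALR (-0.26 to 0.037) in BxPC-3, the CALR difference (-0.075 to 0.37), and HSPA5 (-0.28 to 0.11), CANX (-0.063 to 0.16) and SDF2L1 (-0.02 to 0.37) between lines. HSPA5 in CFPAC-1 passed without BxPC-3 control 1 (adjusted p = 0.0380) and with a mean FPKM of at least 5 (0.0497).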
